A study of Mus musculus with 2 samples.

Results

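Glycerol 3-phosphate is the backbone onto which fat cells load fatty acids to make triglyceride, and 8 genes that supply it or carry glycerol were followed here in inguinal white adipose tissue, a fat depot under the skin of the groin. They are the glycerol channels Aqp7 and Aqp3, the glycerol kinase Gk, the cytosolic glycerol 3-phosphate dehydrogenases Gpd1 and Gpd1l, the mitochondrial glycerol 3-phosphate dehydrogenase Gpd2, and the phosphoenolpyruvate carboxykinases Pck1 and Pck2. They were picked by function, with earlier results of these data known. Of the 8 genes, 7 had a probe set named for them, out of 19938 named genes. No probe set carried the name of Gk in the annotation used, so it has no value below. The mice were male littermates on a C57BL/6J background, kept at 23 °C, and ate a high-fat diet for 9 weeks that began when they were 9 weeks old. Those labelled DKO lacked uncoupling protein 1 and apolipoprotein E (Ucp1-/-;ApoE-/-), and those labelled ApoE-KO lacked apolipoprotein E alone. All mice therefore lacked apolipoprotein E, a lipoprotein ligand, and by the labels the groups differ in Ucp1, the proton channel with which brown and beige fat cells make heat. RNA of 3 mice was mixed for each genotype and hybridised to 1 Affymetrix whole-transcript array, so there were 2 arrays in all.

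With 1 array per genotype there was no replicate check, no difference could be tested, and the spread between mice was not measured. Values are the authors' intensities, which ran from 3.55 to 23635.65 over both arrays. A difference is the log2 intensity of the array labelled DKO minus that of the array labelled ApoE-KO. The expression floor is an intensity of 196.9, the median over named probe sets of the mean of the 2 arrays on the log2 scale, and 9891 genes lay on or above it. Their differences had a median of -0.01, a median size of 0.20, and 90% of them lay between -0.52 and 0.76. The probe set of Ucp1 read 2230 on the DKO-labelled array and 219 on the ApoE-KO-labelled array, which goes against the labels if its probes lie in the deleted part of the gene. The probe set of Apoe, disrupted in both groups, read 502 on the DKO-labelled array and 589 on the ApoE-KO-labelled array, above the floor on both. The labels and files used here do not place the probes of either gene, so neither checks the labels, and directions below are those of the labels. An intensity from bulk tissue cannot tell a change in the number of cells of a type from a change in RNA per cell.

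Fat cells make glycerol 3-phosphate by several routes. Glycolysis gives dihydroxyacetone phosphate, which cytosolic dehydrogenase reduces. Glyceroneogenesis makes the same intermediate from pyruvate or lactate through phosphoenolpyruvate, which is how white fat re-esterifies fatty acids in fasting. Glycerol kinase phosphorylates glycerol directly, an activity known to be low in white and higher in brown fat. Gpd2 runs the other way: on the outer face of the inner mitochondrial membrane it oxidises glycerol 3-phosphate back and hands the electrons to ubiquinone, and with Gpd1 it forms the glycerol phosphate shuttle for cytosolic NADH. Brown fat is known for high Gpd2 activity.

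The shuttle enzymes stood apart from the rest of the group. Gpd2 and Gpd1 were the 2 genes at least 2-fold higher on the DKO-labelled array, and 0 were at least 2-fold lower, among the 6 measured members on or above the floor. Of all 9891 genes on or above the floor, 2.79% were at least 2-fold higher and 0.698% at least 2-fold lower. The other 5 measured genes lay between -0.30 and 0.15. The median over the 7 genes was 0.07, close to the -0.01 of all genes measured, so the group did not move as one.

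**Figure D1:**
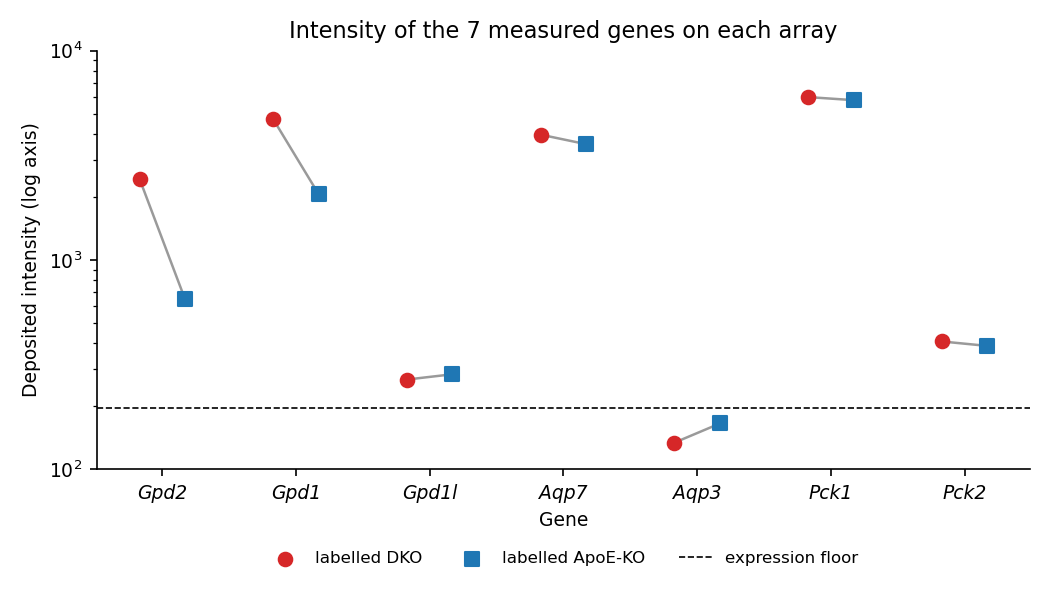
Deposited intensity (log axis) of the 7 measured genes, with the array labelled DKO as a red circle and the array labelled ApoE-KO as a blue square, 1 array each and no error bars because there are no replicates. The lines of Gpd2 and Gpd1 drop steeply to the right, those of the other genes are almost flat, and both points of Aqp3 lie under the dashed floor of 196.9.

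Gpd2, the mitochondrial enzyme of the shuttle, had an intensity of 2438 on the DKO-labelled array and 649 on the ApoE-KO-labelled array. The difference was 1.91, or 3.76-fold. This placed Gpd2 at rank 28 from the top of the 9891 genes on or above the floor, and it was 1 of the 52 genes at least 3-fold higher. Both intensities lay above the floor of 196.9.

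The promoter windows that RefSeq gives for Gpd2 are printed because this gene differed most, and that of Pck1 because it belongs to a gene of the group that hardly differed. Each runs from 250 bases before to 50 bases after a transcription start, 5′ to 3′ on the gene's strand in GRCm38.p6, and capitals mark the matches to the motifs named below. The Gpd2 windows lie at chr2:57237428-57237727 and chr2:57238132-57238431 on the plus strand, with starts 704 bases apart, and the Pck1 window at chr2:173152823-173153122 on the plus strand.
Gpd2, upstream start: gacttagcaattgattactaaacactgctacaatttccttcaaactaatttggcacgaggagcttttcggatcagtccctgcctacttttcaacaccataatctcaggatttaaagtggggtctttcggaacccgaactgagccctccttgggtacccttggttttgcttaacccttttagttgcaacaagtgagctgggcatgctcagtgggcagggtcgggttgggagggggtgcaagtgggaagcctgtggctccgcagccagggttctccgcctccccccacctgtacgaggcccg
Gpd2, downstream start: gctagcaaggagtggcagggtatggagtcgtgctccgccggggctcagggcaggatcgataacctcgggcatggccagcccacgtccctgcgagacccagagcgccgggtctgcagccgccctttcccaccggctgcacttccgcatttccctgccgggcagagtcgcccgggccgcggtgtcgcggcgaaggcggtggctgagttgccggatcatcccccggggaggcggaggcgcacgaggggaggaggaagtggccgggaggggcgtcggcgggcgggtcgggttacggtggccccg
Pck1: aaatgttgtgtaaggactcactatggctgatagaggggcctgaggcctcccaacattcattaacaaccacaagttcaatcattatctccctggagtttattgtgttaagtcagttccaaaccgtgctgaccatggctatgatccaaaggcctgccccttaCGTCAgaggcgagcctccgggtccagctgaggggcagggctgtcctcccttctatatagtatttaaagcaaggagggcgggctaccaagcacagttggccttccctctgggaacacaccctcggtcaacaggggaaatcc

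The Gpd2 windows differed from each other in base composition, with 53.0% G and C at the upstream start and 72.7% at the downstream start, and the array cannot say which start was used. No RefSeq window was at hand for Gpd1, so its promoter was not searched. RefSeq windows were at hand for the other 7 of the 8 genes, Gk included, 9 windows in all. They were searched on both strands for 5 motifs, which do not overlap in them. The half-site of the cyclic AMP response element, TGACG, was in the windows of Pck1 and Gk, and in 20.8% of the 32851 windows in the table. The Pck1 match begins at base -90 and reads CGTCA, the motif on the other strand. It falls in a stretch known from work on the rat gene as the cyclic AMP response element, through which hormones act on this promoter. The CCAAT box, CCAAT, was in the windows of Gpd1l and Pck2 (37.4% of all windows), and the TATA box, TATAAA, in that of Aqp3 (13.6%). The response element of estrogen-related receptors, TNAAGGTCA, was in 0 of the 9 windows (1.28% of all windows). That of peroxisome proliferator-activated receptors with RXR, AGGTCA repeated in the same direction with 1 base between, was also in 0 of the 9 (0.0396%). These counts describe the letters in the windows and carry no statement on binding.

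Gpd1, which reduces dihydroxyacetone phosphate to glycerol 3-phosphate in the cytosol and is abundant in mature fat cells, read 4702 on the DKO-labelled array and 2058 on the ApoE-KO-labelled array. The difference of 1.19, or 2.28-fold, stood at rank 161 of 9891. The fold of Gpd2 was 1.65 times that of Gpd1 (0.72 on the log2 scale). Gpd1l, a relative of Gpd1 known for its role in heart sodium channel function, read 268 on the DKO-labelled array and 284 on the ApoE-KO-labelled array, a difference of -0.08. The difference of Gpd1 was larger than that of Gpd1l by 1.28 on the log2 scale.

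**Figure D2:**
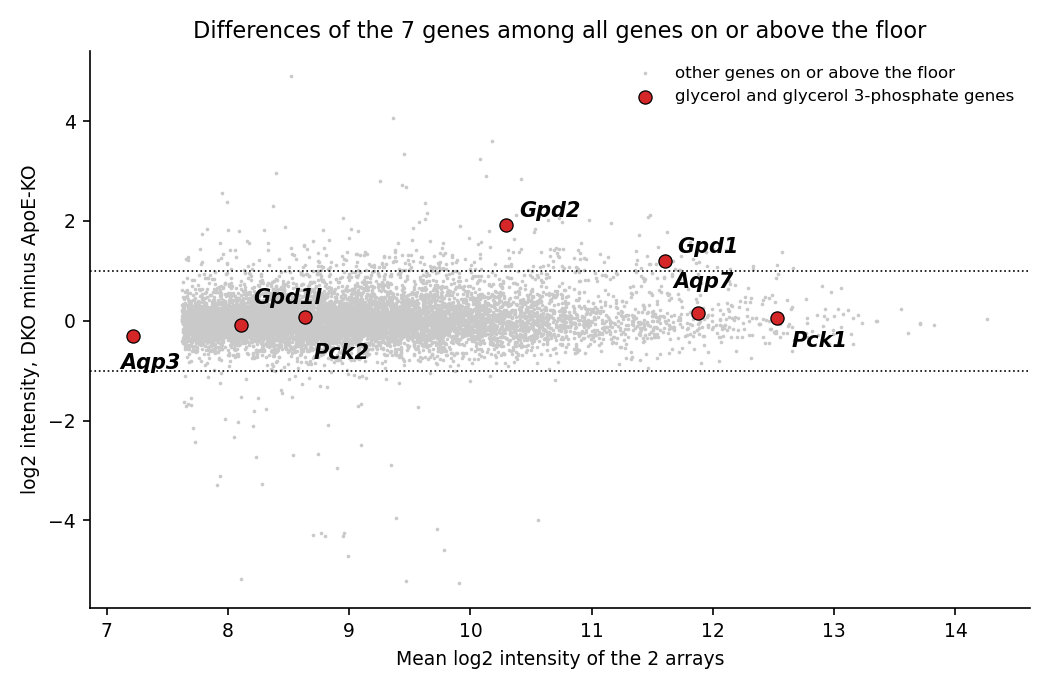
Difference in log2 intensity (DKO minus ApoE-KO) against the mean log2 intensity of the 2 arrays, with the 7 measured genes in red and the other genes on or above the floor in grey. Gpd2 at 1.91 and Gpd1 at 1.19 lie above the dotted 2-fold line, 5 genes lie in the central band, and Aqp3 lies left of the grey points because it is under the floor.

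Of the glycerol channels, Aqp7 did not share the large differences of Gpd2 and Gpd1, and Aqp3 lay too low to compare. Aqp7, the main route by which glycerol from lipolysis leaves fat cells, read 3971 on the DKO-labelled array and 3576 on the ApoE-KO-labelled array, a difference of 0.15 or 1.11-fold. Aqp3, a glycerol and water channel best known from skin and kidney, read 134 on the DKO-labelled array and 165 on the ApoE-KO-labelled array. Both values were under the floor of 196.9, and its difference of -0.30 has no fold given here. The floor is a median over named probe sets and not a measure of background. No detection calls were used, so signal and background were not told apart there. Aqp7 and Aqp3 are next to each other among the protein-coding genes of chromosome 4 in RefSeq's order. Aqp7 lay above the floor on both arrays and Aqp3 under it on both.

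The carboxykinases of glyceroneogenesis were nearly level between the arrays. Pck1, the cytosolic enzyme that controls glyceroneogenesis in fat, read 6005 on the DKO-labelled array and 5806 on the ApoE-KO-labelled array, a difference of 0.05 or 1.03-fold. Pck2, the mitochondrial form and a known target of the stress-response factor ATF4, read 408 on the DKO-labelled array and 388 on the ApoE-KO-labelled array, a difference of 0.07 or 1.05-fold. Both were smaller than the median size of 0.20 over genes on or above the floor, as were those of Gpd1l and Aqp7. In the order of differences, Gpd2 came first and Gpd1 next, then Aqp7, Pck2, Pck1 and Gpd1l, and Aqp3 has no place because both its values were under the floor. Without replicates, neighbours from Aqp7 to Gpd1l cannot be ranked with any confidence.

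Genes on either side of these steps were taken from 8 lists with 60 distinct measured genes besides the members. Of the 46 on or above the floor, 10 were at least 2-fold higher and 1 was at least 2-fold lower on the DKO-labelled array, and the median difference of the 60 was 0.22. These lists were compiled with earlier results of these data known.

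Partners of the carboxykinases in glyceroneogenesis, unlike Pck1 and Pck2 themselves, included large differences. All 12 measured partners lay on or above the floor, 5 were at least 2-fold higher and 0 lower, and their median was 0.80. Pgam1, a phosphoglycerate mutase between phosphoenolpyruvate and the triose phosphates, read 2720 on the DKO-labelled array and 794 on the ApoE-KO-labelled array (1.78). Pgk1, the phosphoglycerate kinase of the same stretch, read 5335 on the DKO-labelled array and 2182 on the ApoE-KO-labelled array (1.29). Both genes had 3 probe sets, of which 2 held identical values, so their probes may be shared with near-identical copies and these values are uncertain. These enzymes work in both directions and serve glycolysis as well. Got1, the cytosolic aspartate aminotransferase, read 898 on the DKO-labelled array and 357 on the ApoE-KO-labelled array (1.33). Mpc1, a subunit of the mitochondrial pyruvate carrier, differed by 1.28 and Mdh2, the mitochondrial malate dehydrogenase, by 1.03. Pcx, the pyruvate carboxylase that opens the route, was named after its values were seen and read 2905 on the DKO-labelled array and 2569 on the ApoE-KO-labelled array (0.18).

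The malate-aspartate shuttle is the other carrier of cytosolic NADH into mitochondria, and its 7 measured genes were uneven. Of the 6 on or above the floor, Got1 and Mdh2 were at least 2-fold higher and 0 were lower, with a median of 0.79 over the 7. Got1, Mdh2, Mdh1, Got2 and Slc25a11 are also on the list of glyceroneogenesis partners, so these are not separate observations. Chosen after their values were seen, the mitochondrial aminotransferase Got2 stood at -0.20 (-0.21 by its other probe set) and Slc25a12 at -0.91. Slc25a12 is the aspartate-glutamate carrier of muscle and brain, and it read 243 on the DKO-labelled array and 454 on the ApoE-KO-labelled array. No gene of this list reached the 1.91 of Gpd2.

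Gpd2 is 1 of several dehydrogenases that feed ubiquinone in the inner mitochondrial membrane, and the others were uneven. Of the 10 measured genes, 9 lay on or above the floor, 4 were at least 2-fold higher, 0 lower, and the median was 0.60. Sdhb of succinate dehydrogenase read 1285 on the DKO-labelled array and 419 on the ApoE-KO-labelled array (1.62), and its partners Sdhd (1.28) and Sdha (1.09) differed less. Etfdh, which takes electrons from fatty acid oxidation, read 6456 on the DKO-labelled array and 2205 on the ApoE-KO-labelled array (1.55). The genes of pyrimidine synthesis and of proline, choline and sulfide oxidation, picked out after their values were seen, stood at 0.12 (Dhodh), 0.03 (Prodh), -0.01 (Chdh) and 0.22 (Sqor). The difference of Gpd2 was larger than that of each of the 10.

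**Figure D3:**
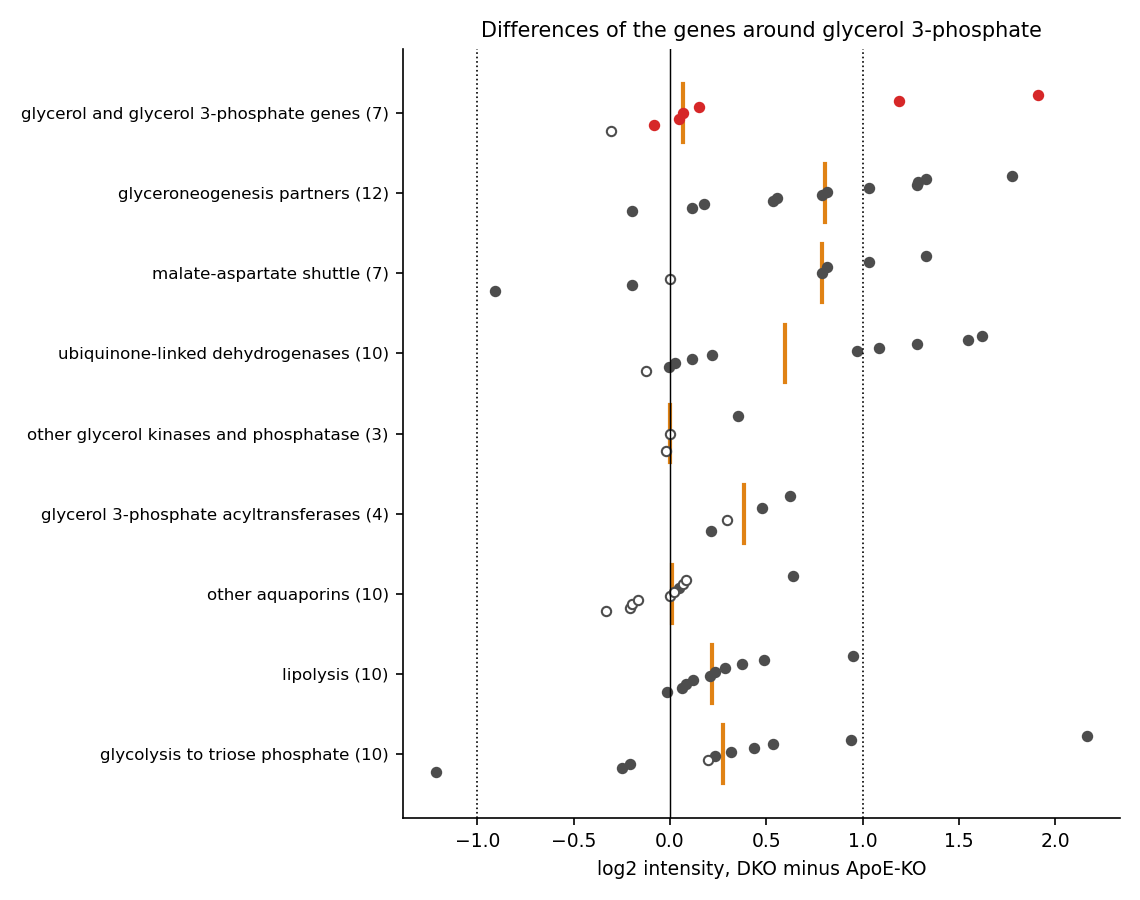
Differences in log2 intensity (DKO minus ApoE-KO) of the 7 measured genes (top row; red where on or above the floor) and of 8 lists around them, 1 point per gene, with the number measured in brackets. Open points are genes under the floor, orange bars are list medians, and dotted lines mark 2-fold. Gpd2 and Gpd1 are far from the remaining points of the top row, and the medians of the glyceroneogenesis partners (0.80) and the ubiquinone-linked dehydrogenases (0.60) turn in order when genes under the floor are left out (0.80 and 0.97).

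Genes of lipolysis, which releases glycerol, and of the acyltransferases, which load fatty acids onto glycerol 3-phosphate, differed by less than 2-fold. All 10 lipolysis genes lay on or above the floor, 0 passed 2-fold either way, and their median was 0.22. The monoacylglycerol lipase Abhd6 (0.95) and the lipase activator Abhd5 (0.49) had the largest differences. Among 4 glycerol 3-phosphate acyltransferase genes, 3 on or above the floor, 0 passed 2-fold, and the median was 0.39. Gpam, the mitochondrial acyltransferase that starts triglyceride synthesis, read 2179 on the DKO-labelled array and 1416 on the ApoE-KO-labelled array (0.62), and Gpat4 of the endoplasmic reticulum stood at 0.48. The fold of Gpd1, which makes glycerol 3-phosphate, was 1.48 times that of Gpam, which uses it.

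The other glycerol kinase genes had low signals. Gk2, a testis form, and Gk5 were under the floor on both arrays (43 and 183 on the DKO-labelled array, 43 and 183 on the ApoE-KO-labelled array). They were named after their values were seen and cannot stand in for Gk. Pgp, a phosphatase that turns glycerol 3-phosphate back into glycerol, stood at 0.36. Of 10 other aquaporin genes, 2 lay on or above the floor with 0 past 2-fold: Aqp11 at 0.64 and the endothelial water channel Aqp1 at 0.04. Aqp11 was under the floor on the ApoE-KO-labelled array (183), and stood at 0.53 with that value set to the floor. The median of the 10 was 0.01. Glycolysis down to the triose phosphates had a median of 0.28 over 10 measured genes, 9 of them on or above the floor, with 1 at least 2-fold higher and 1 at least 2-fold lower. These were the phosphofructokinase genes, Pfkl of liver type (2.17) and Pfkm of muscle type (-1.21).

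With 2 single arrays, likeness between genes can be judged only by level and difference together, which is a weak measure. Over the 9636 genes on or above the floor that have established names, the closest to Gpd2 in mean log2 intensity and difference were the glycogen synthase gene Gys2 (distance 0.19, difference 1.79), Acadvl (0.23, 2.13) and Abcd3 (0.24, 1.84). The closest to Gpd1 were Sod2 (0.03, 1.22), Plin2 (0.06, 1.25) and Prdx3 (0.06, 1.19).

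Cell type markers differed between the same arrays. Mature fat cell markers were level: 13 of 15 were measured, 0 passed 2-fold, the median was 0.05, and their intensities summed to 61479 on the DKO-labelled array and 60114 on the ApoE-KO-labelled array. Plin4 (-0.60) and Pparg (0.47) were the largest. All 13 lay above the floor on both arrays, as the labelled tissue requires. Pnpla2, Lipe and Plin1 are also on the lipolysis list, and Slc2a4 is also on the glycolysis list. The level markers and those lists are therefore not separate observations. Brown and beige markers differed most upward, with 9 of 11 at least 2-fold higher and a median of 2.90. Their summed intensities were 23405 on the DKO-labelled array and 4166 on the ApoE-KO-labelled array. The transcription factor genes Prdm16 (0.13) and Ebf2 (-0.21), named after their values were seen, did not share this difference. Ucp1, which the DKO mice lack by the labels, is among the 9 and in the sums. It read 2230 on the DKO-labelled array and 219 on the ApoE-KO-labelled array. Elovl3 (4.90) and Fabp3 (3.59) had the largest differences as deposited. Of the 9, 2 were under the floor on the ApoE-KO-labelled array, Elovl3 among them. Setting such values to the floor kept all 9 past 2-fold, while Elovl3 stood at 3.35, behind Fabp3, and the list median was 2.36. Skeletal muscle markers read lower for 24 of 24, 19 of them on or above the floor and at least 2-fold lower. The list had summed intensities of 4464 on the DKO-labelled array and 49195 on the ApoE-KO-labelled array. Myh7, Tnnt1 and Tnni1, named after their values were seen, were under the floor on both arrays, so their lower readings give no direction. Atp2a1 (-5.25) and Myh4 (-5.22) had the largest differences as deposited. Of the 19, 14 were under the floor on the DKO-labelled array and passed it through the other array. Setting these values to the floor kept all 19 past 2-fold, while Atp2a1 stood at -4.91 and Myh4 at -4.45, and the list median was -3.06. Muscle also uses the glycerol phosphate shuttle. The part of muscle RNA, or of beige cell number, in the values of Gpd2 and Gpd1 was not tested. The part of muscle RNA in the values of Pfkm (-1.21) and Slc25a12 (-0.91) was not tested either.

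The remaining marker lists bear on cells in which the channels are also known. Of 12 keratinocyte and epithelial markers, which matter for Aqp3, 1 lay on or above the floor (Krt8, 0.14), 0 passed 2-fold, the median was 0.05, and the sums were 1310 on the DKO-labelled array and 1278 on the ApoE-KO-labelled array. Endothelial markers, which matter for Aqp7 in capillaries, had a median of 0.07 over 8 with 0 past 2-fold, sums of 8596 on the DKO-labelled array and 8280 on the ApoE-KO-labelled array, and Tek (-0.41) and Emcn (0.38) as the largest. B cell markers were at least 2-fold lower for 5 of 6 (median -1.11; Ms4a1 -1.16, Fcer2a -1.15), with sums of 2642 on the DKO-labelled array and 5492 on the ApoE-KO-labelled array. Macrophage markers had 0 of 7 past 2-fold (median -0.51; Cd163 -0.72, Csf1r -0.60), with sums of 6529 on the DKO-labelled array and 9417 on the ApoE-KO-labelled array. Fibroblast and progenitor markers had 1 of 6 at least 2-fold lower (median -0.66; Pi16 -1.13, Col3a1 -0.79), with sums of 14428 on the DKO-labelled array and 21260 on the ApoE-KO-labelled array. Of 7 erythroid markers, 2 were measured (median 0.27, Alas2 0.49), with sums of 497 on the DKO-labelled array and 392 on the ApoE-KO-labelled array. Only Alas2 lay on or above the floor, and the other, Slc4a1, was under it on both arrays. The lowest intensity over both arrays was 3.55, so no marker of any list could be at an intensity of 0.

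**Figure D4:**
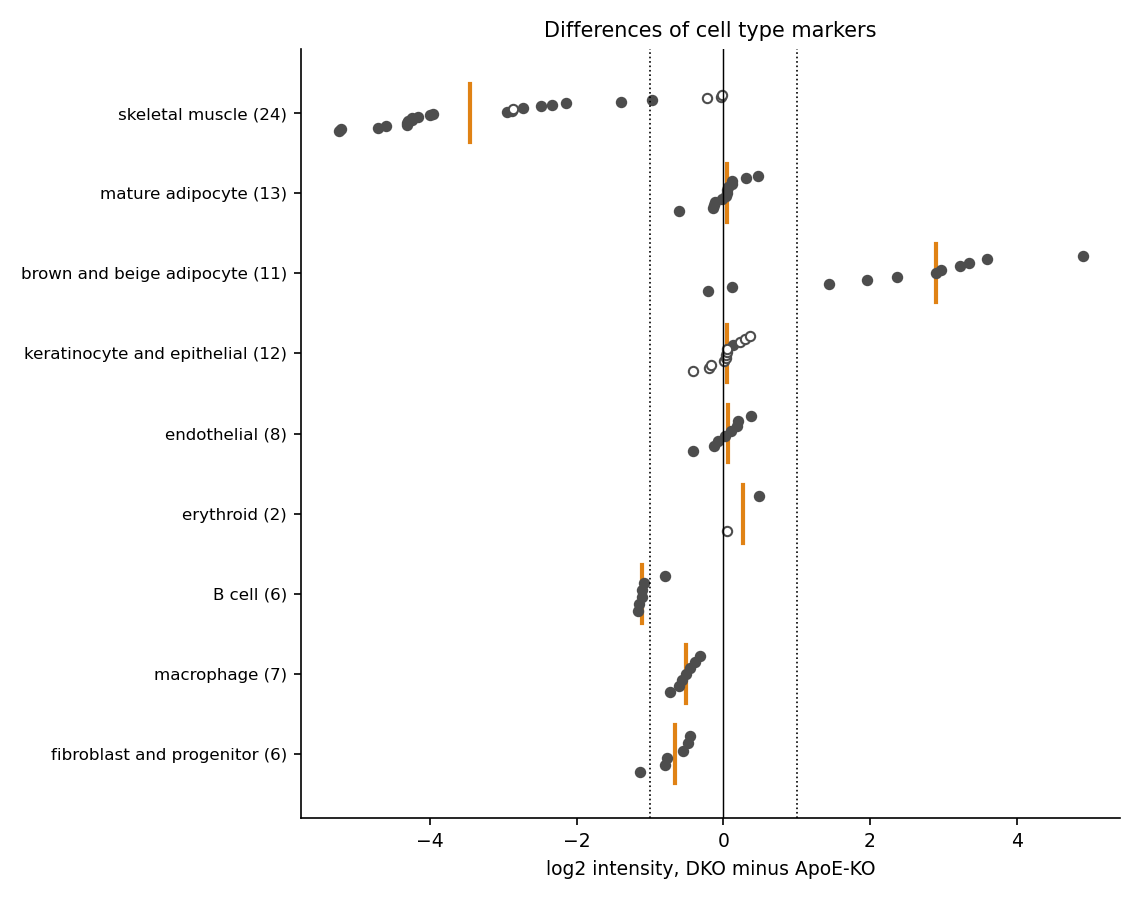
Differences in log2 intensity (DKO minus ApoE-KO) of cell type markers, 1 point per gene, with the number measured in brackets, open points for genes under the floor, orange bars for list medians and dotted lines at 2-fold. Brown and beige markers, Ucp1 among them, lie mostly to the right (median 2.90), but Prdm16 (0.13) and Ebf2 (-0.21) do not. Skeletal muscle markers lie mostly to the left (median -3.46), and mature fat cell markers around 0 (median 0.05).

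**Figure D5:**
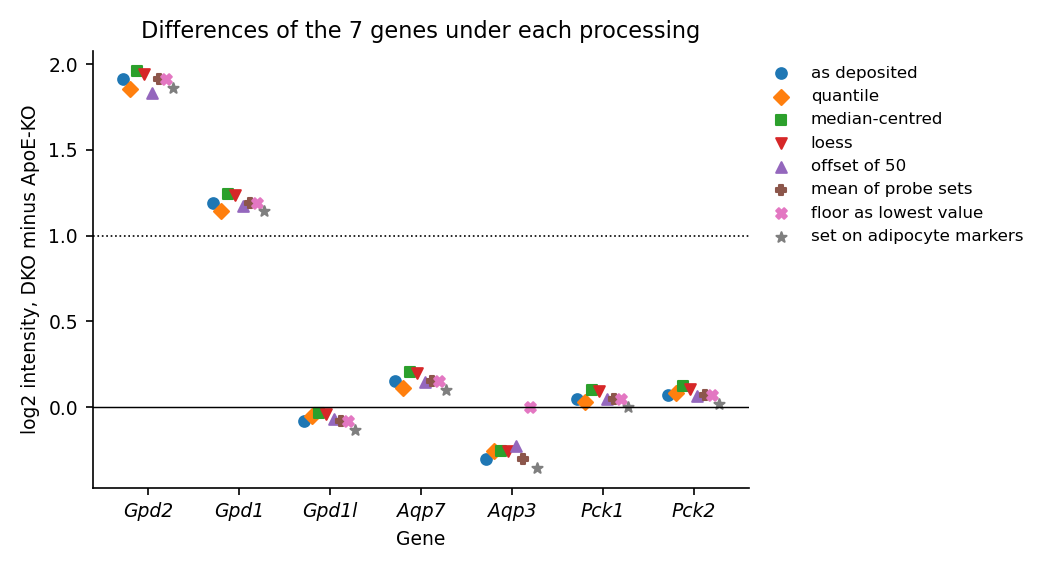
Difference in log2 intensity (DKO minus ApoE-KO) of the 7 measured genes as deposited and under 7 other processings, 1 symbol per processing. Gpd2 (1.83 to 1.96) and Gpd1 (1.14 to 1.24) keep above the dotted 2-fold line in all of them, and Aqp3 moves to 0 when values under the floor are set to it. Each gene has 1 probe set, so the mean of probe sets could move none of them. Setting values to the floor could not move genes above it on both arrays.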

How the data were processed

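Trizol RNA of 3 mice per genotype was pooled and biotin-labelled, per the labels' protocols. The authors deposited 1 linear intensity per probe set and array (35557 probe sets; medians of 152.1 for DKO and 157.65 for ApoE-KO). The handling of background, probe summary and scaling was not given in the sources used here. No detection calls were used.

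The platform annotation given with the data gave 21789 probe sets 1 gene symbol, 1621 several (left out) and 12147 none. Entrez identifiers matched RefSeq (GRCm38.p6) for 21698. Of several probe sets of a gene (999 genes), the one with the highest mean was used. Log2 values had no pseudocount. The floor was the median of named probe sets, and differences of at least 2-fold on or above it were counted. No test was possible with 1 array per group. The calculation was run on simulated arrays with large planted differences and small noise. That run checks the code only and does not measure the reliability of 1 array per group.

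The members and gene lists were chosen with earlier results of these data known. Named were all members, list genes past 2-fold (otherwise the 2 largest), the 2 largest of each marker list, and the 3 nearest genes to members past 2-fold, leaving out predicted genes and RIKEN clones. Others are said to be chosen after their values were seen. Alternatives were quantile normalization, median centring, loess (span 0.4), an offset of 50, the mean of probe sets, other floors and thresholds. Promoter sequences are RefSeq's. Python 3.11.15, numpy 2.4.6, pandas 2.3.3 and statsmodels 0.14.6 were used.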

Additional observations from a re-analysis of the deposited data

How the results depend on the processing

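Of 154 alternative values, 141 stayed within the median size of a difference (for counts, within 1.5 times) and 13 did not; 0 differences past 2-fold changed sign. Gpd2 lay between 1.83 and 1.96 and Gpd1 between 1.14 and 1.24 under 7 alternatives. Each has 1 probe set and lies above the floor on both arrays. The mean of probe sets and the floor as lowest value therefore could not move either gene, and such fixed values are among the 141. Setting both arrays equal on the mature fat cell markers, chosen after seeing the data, put Pck1 at -0.0016. With values under the floor set to the floor, Aqp3 became 0.00 and the muscle median -3.06; an offset of 50 gave -3.13 for that median. With only genes on or above the floor, the medians were -4.08 for muscle, 0.97 for the ubiquinone-linked dehydrogenases, above the 0.80 of the glyceroneogenesis partners, and 0.34 for other aquaporins. A 3-fold threshold kept 1 member higher, Gpd2, while 1.5-fold kept 2. Over all genes, 276 were at least 2-fold higher, against 749 at 1.5-fold and 52 at 3-fold, and 69 were at least 2-fold lower, against 369 and 38, 105 with no floor and 26 with the floor at percentile 75. Thresholds and floors move counts by construction. Marker counts with values set to the floor were added after seeing the data. Gk was not run under any setting because no probe set was named for it. The number of arrays limits precision throughout.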

Other observations

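Some genes around the pathway had several probe sets, and these did not always read as separate measurements. Pgam1 had 3 probe sets, 2 of which held identical intensities (2719.62 on the DKO-labelled array and 793.71 on the ApoE-KO-labelled array), and Pgk1 had 3, of which 2 were identical (5334.66 on the DKO-labelled array and 2181.69 on the ApoE-KO-labelled array). The third probe sets gave 1.79 for Pgam1 and 1.28 for Pgk1. The 2 probe sets of Hk1, a hexokinase at the entry of glycolysis, had opposite signs. One read 651 on the DKO-labelled array and 370 on the ApoE-KO-labelled array (0.81), and the other 6393 on the DKO-labelled array and 7596 on the ApoE-KO-labelled array (-0.25). These genes were chosen after their values were seen.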
